A study of Mus musculus with 24 samples.

Results

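The late response of thioglycollate-elicited peritoneal macrophages (EPM) to Kdo2-lipid A (KLA) was described from 4 of the 24 channels of the series. These were the 2 EPM channels labelled Kdo2 at 12 h and the 2 EPM channels labelled DMSO at 12 h, chosen by their labels alone. The cells came from C57BL/6 mice, were elicited with thioglycollate, plated overnight and washed, so that the population was the adherent part of an inflammatory exudate. KLA is the purified active core of lipopolysaccharide, and DMSO is its solvent. Transcript levels were read on Agilent whole mouse genome arrays, and each array carried 2 RNA samples of a single condition, replicate 1 in the Cy5 channel and replicate 2 in the Cy3 channel. KLA and DMSO therefore lay on different arrays, and the spread between replicates, on which every SE and adjusted p below rests, holds no differences between arrays. The labels do not say whether a sample pooled several animals. For comparison, EPM were also treated with KLA for 1 h against untreated EPM, and bone marrow-derived macrophages (BMDM) of the same strain, grown out in L-cell medium with M-CSF, were treated with KLA or DMSO for 12 h, again with 2 channels per condition.

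KLA binds the receptor TLR4 with its partner MD-2. From the plasma membrane TLR4 signals through MyD88 to NF-kappaB and AP-1, and from endosomes through TRIF to IRF3 and interferon beta. Secreted interferon then acts back on the cell through its own receptor, so that the transcripts seen many hours later are a mixture of direct targets, interferon-stimulated genes and genes that were switched off. Work on this response has mostly dealt with induced genes. Repressed genes are often those of the resting macrophage, such as scavenger receptors, lysosomal enzymes and enzymes of lipid metabolism.

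The 10 markers of macrophages (among them Emr1, Csf1r, Cd68 and Mpeg1) were well above background in all 4 channels, with summed intensities of 691240 and 593589 after DMSO and of 619313 and 630532 after KLA. Single markers did change: 4 were called lower, from Csf1r (-0.40) to Ctsd (-0.84), and 4 higher, from Emr1 (0.82) to Fcgr1 (2.82). The 8 markers of mesothelium and fibroblasts were also detected in all 4 channels, with sums of 103370 and 91154 after DMSO and of 88955.8 and 85879.9 after KLA; 6 of them were called lower and 1 higher, with a median change of -0.50 on the log2 scale. The sum of the B cell list went from 2501.8 and 2545.42 after DMSO to 1298.17 and 1503.34 after KLA, with 4 of 7 markers detected in all channels. Cd22, the brightest of them (-1.25), and Cd79b were called lower and 3 others higher. The sum of the eosinophil list went from 771.686 and 783.518 to 407.473 and 406.88 through Siglecf alone (-2.06); the 4 other markers were not called, 3 of them were not detected, and the list median was 0.03. The sum of the dendritic cell list fell from 14011.9 and 12567.1 to 4651.15 and 4624.45, but nearly all of that sum was Itgax, which macrophages also express. Markers of neutrophils, T cells, mast cells and erythroid cells were detected in all channels for 4 of 9, 3 of 7, 3 of 4 and 2 of 4 genes. Of the neutrophil markers 2 were called lower and 2 higher, from Mmp8 (-1.02) to Camp (0.93). Of the T cell markers 2 were lower and 2 higher, from Cd28 (-1.14) to Lck (1.65). In the mast cell list 1 was higher, and no erythroid marker was called. Sums for the 4 NK cell markers stayed between 256.988 and 262.983. Whether these other cells had a part in the changes below was not tested. Between 60.4% and 62.5% of spots were well above background in the 4 channels, and no spot was saturated.

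Of 17326 genes tested, 5951 (34.3%) were lower and 3393 (19.6%) higher after 12 h of KLA (limma over all 24 channels, Benjamini-Hochberg adjusted p of 0.05). Most calls were small. A decrease of more than 2-fold was seen for 798 genes (4.61%) and an increase of that size for 834 genes (4.81%), whereas beyond 4-fold there were 101 decreases and 361 increases. Increases thus outnumbered decreases beyond 4-fold. At 2-fold the near balance depended on the processing, with 649 decreases and 983 increases without normalization between arrays, 675 and 891 with the changes centred on all genes, and 773 and 976 with the normalized values of the authors. The median change of all genes was -0.06, and the split of calls followed the normalization: 63.7% of calls were decreases here, 53.6% (4905 lower and 4242 higher) without normalization between arrays, and 54.6% (5086 and 4221) with the changes centred on all genes. When each array was taken as 1 sample, with the untreated EPM array as a second control, 1032 genes (5.96%) were lower and 976 (5.63%) higher, shares against which the class counts from that fit below can be read. Of the genes beyond 2-fold, 522 of the 798 repressed and 692 of the 834 induced ones were also called in that fit, and 94 of the 101 genes repressed by over 4-fold. In a bulk sample less RNA per cell and fewer cells of a type cannot be told apart.

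The 20 genes named for the largest decreases lay outside the gene lists of the study. Its early list holds genes induced more than 3-fold at 1 h, and its late list genes induced more than 4-fold at 12 h and less than 1.2-fold at 1 h. Both were chosen on the study's own EPM expression profiles and are no independent evidence of direction. Cmbl, a hydrolase of the dienelactone hydrolase family (probe at chr15:31534541-31534600, mm8), measured 10.50 and 10.73 log2 units after DMSO and 6.58 and 6.58 after KLA. Its replicates lay tightly together in each condition and the change was -4.03 (SE 0.08, limma adjusted p = 4.68e-18), a 16.4-fold decrease. Slco2b1, an uptake carrier of organic anions such as steroid sulfates (chr7:99532581-99532640), went from 9.99 and 10.11 to 6.07 and 6.16. It was not well above background after KLA and was at least 15.3-fold lower (limma adjusted p = 4.16e-19). Susd3, a membrane protein with a sushi domain, fell from 11.69 and 11.96 to 7.87 and 7.98, a change of -3.90 (SE 0.10).

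Several receptors stood among them. Ebi2 (now Gpr183) is a receptor for an oxysterol whose synthesis involves, among other enzymes, Ch25h. It measured 10.37 and 10.56 after DMSO and 6.61 and 6.66 after KLA, a change of -3.83 (SE 0.08). Ch25h itself moved the other way, from 7.43 and 7.59 to 12.64 and 12.83, a 37.4-fold increase. Cnr2, the cannabinoid receptor of immune cells, fell from 11.37 and 11.21 to 8.16 and 8.00, and it alone of the 20 named decreases had already fallen by more than 2-fold at 1 h (-1.92, limma adjusted p = 7.3e-11). Cd93, a lectin-like membrane protein linked to the clearance of dying cells, remained bright but fell from 14.36 and 14.43 to 11.46 and 11.55. Itga6, a laminin-binding integrin chain, fell from 12.51 and 12.75 to 9.63 and 9.75; its other probes changed by -2.60 and -0.35. The rule for the 20 named decreases required that the DMSO and KLA channels did not overlap, so this separation is no further evidence.

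Pparg, the nuclear receptor that drives lipid uptake genes in macrophages, was the bright transcription factor of the list (chr6:115455814-115455873). It measured 12.70 and 12.71 after DMSO and 9.84 and 9.80 after KLA, a 7.41-fold decrease (SE 0.05 on the log2 scale, limma adjusted p = 1.81e-19), with -0.03 at 1 h. Sesn1, a stress protein that restrains mTORC1, fell from 12.36 and 12.54 to 8.94 and 9.01. Sort1, a sorting receptor between the Golgi and lysosomes, fell from 10.95 and 10.74 to 7.28 and 7.16, and its 3 other probes changed less, by -1.49 to -1.10. Tpcn1, a cation channel of endolysosomes, fell from 11.91 and 11.83 to 8.70 and 8.75. The remaining named decreases were Mamdc2 (-3.48), St6gal1, a sialyltransferase (-3.43), Bex1 (-3.36), Matk, a kinase that restrains Src family kinases (-3.30), Tmem37 (-3.27), Kctd12b (-3.04), Tmem154 (-3.01), Galnt9, which starts O-linked glycans (-2.99) and Sgsh, the lysosomal sulfamidase that degrades heparan sulfate (-2.92). For 3 of them a second probe was nearly flat: St6gal1 at -0.25, Matk at -0.23 and Sgsh at -0.50. More widely, 338 of the 798 repressed genes had another measured probe, which had the same sign in 311 and exceeded 2-fold in 97, with a median of -0.65 against -1.36 for the probes used.

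**Figure D1:**
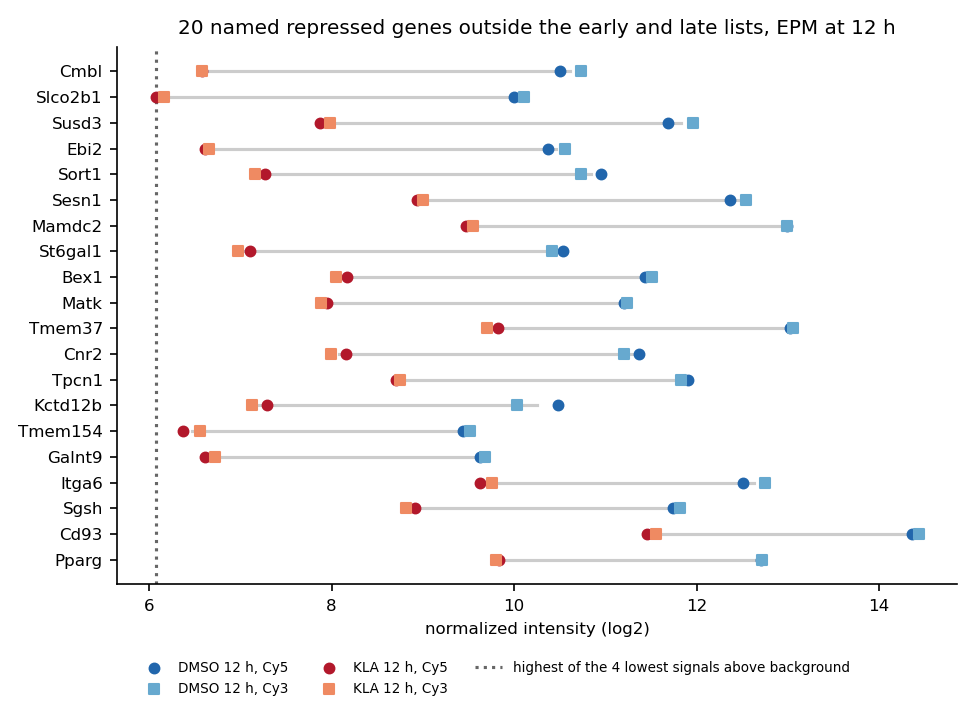
Normalized intensity (log2, horizontal) of the 20 named repressed genes outside the early and late lists in each of the 4 EPM channels at 12 h; the dotted line is the highest of the 4 lowest signals above background. Both KLA channels lie left of both DMSO channels in every gene, as the rule for naming them required, and Slco2b1 reaches the background line.

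The promoters of the pair of genes with the largest decreases are shown as the plainest cases of loss, each 300 bases from 250 before to 50 after the RefSeq start (GRCm38.p6). The Cmbl window (chr15:31568583-31568882, plus strand) held none of the 10 motifs searched. In the Slco2b1 window (chr7:99711291-99711590, minus strand, the first of 3 listed), capitals mark a match to the PU.1 letters GAGGAAGT, which begins after the start. This window also held the AP-1 letters TGANTCA, which are not marked.
Cmbl: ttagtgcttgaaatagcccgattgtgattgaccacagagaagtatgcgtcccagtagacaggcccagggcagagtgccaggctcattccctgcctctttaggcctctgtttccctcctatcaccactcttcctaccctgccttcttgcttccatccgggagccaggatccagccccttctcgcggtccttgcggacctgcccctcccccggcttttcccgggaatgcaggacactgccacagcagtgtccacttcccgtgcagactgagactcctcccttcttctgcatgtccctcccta
Slco2b1: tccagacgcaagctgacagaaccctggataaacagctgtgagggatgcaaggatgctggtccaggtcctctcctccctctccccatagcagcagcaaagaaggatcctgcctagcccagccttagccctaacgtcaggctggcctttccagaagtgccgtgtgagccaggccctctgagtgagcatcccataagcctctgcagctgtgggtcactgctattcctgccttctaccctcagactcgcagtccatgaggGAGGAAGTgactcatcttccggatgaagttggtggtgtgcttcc
Motifs were searched on both strands in all windows of a gene. The PU.1 letters stood in 5.25% of the 800 windows of genes lower by over 2-fold, in 3.24% of the 309 windows of genes higher by over 4-fold and in 2.94% of the 15296 windows of all genes tested. The TFEB letters TCACGTGA, the element of lysosomal genes, stood in 2.25%, 0.324% and 1.61%, and the SREBP letters TCACNCCAC in 1.75%, 0.971% and 1.22%. The NF-Y box CCAAT was alike in all of them, at 37.5%, 36.3% and 37.6%. These shares are descriptions without a test, and most repressed promoters held neither the PU.1 nor the TFEB letters.

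The 798 genes lower by over 2-fold at 12 h had a median change of -1.34 at that time and of -0.18 at 1 h. They were selected on the 12 h change, so a smaller median at 1 h is partly built in. The 834 genes higher by over 2-fold likewise had medians of 1.80 at 12 h and 0.11 at 1 h. Of the 798 repressed genes 309 (38.7%) were called lower at 1 h, against 19.7% of all genes. Another 36 (4.51%) were called higher, against 9.39% of all genes, and 453 were not called. Only 14 were lower by over 2-fold at 1 h. Of the 101 genes lower by over 4-fold, 52 were called lower at 1 h and 1, Cnr2, exceeded 2-fold then. Egr2 was the only one of the 798 in the early list, and the late list, which by its definition holds induced genes, held none. Of the 119 late-list genes tested, 118 were called higher at 12 h and 1 lower, by the probe used. The 1 h and 12 h changes have different control arrays.

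Enzymes of cholesterol synthesis had the lowest median of all 41 gene classes examined. Of 28 genes of sterol synthesis and uptake, 22 were lower (78.6%, beside 34.3% of all genes) and 2 higher. By over 2-fold 13 were lower, and the median change was -0.95 beside -0.06 over all genes. Dhcr7, which makes the last step to cholesterol in the Kandutsch-Russell branch, fell from 12.32 and 12.11 to 10.08 and 9.99, a change of -2.19 (SE 0.09). Sqle, the squalene epoxidase, changed by -1.69, Idi1 by -1.53 and Hmgcs1 by -1.22. Srebf2, the transcription factor that governs the pathway, changed by -1.25. Other probes gave smaller changes, of -1.26 for Dhcr7, -0.76 for Idi1, -0.38 to -0.18 for Hmgcs1 and -0.81 to -0.04 for Srebf2. Among the genes called higher was Ggps1, which leads isoprenoids away to protein prenylation (0.89). At 1 h the class median was -0.10. The fit on array means gave a median of -0.83, but called only 2 of the 28 genes lower, beside 5.96% of all genes.

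Among 28 genes of fatty acid and triglyceride synthesis 10 fell (35.7%) and 7 rose (25%), shares near the 34.3% and 19.6% of all genes. Lpin1, the phosphatidate phosphatase, fell from 9.49 and 9.69 to 7.30 and 7.51 (-2.19, SE 0.10), and Scd2, a desaturase, from 12.34 and 12.18 to 10.57 and 10.61 (-1.67). In contrast Acsl1, which activates long-chain fatty acids, rose from 11.68 and 11.78 to 14.91 and 14.93, a 9.13-fold increase with 0.01 at 1 h, and Dgat2 rose by 1.48. Of 20 LXR targets and genes of cholesterol efflux, 13 fell (65%) and 4 rose (20%), with a median of -0.53. The lysosomal acid lipase Lip1 (now Lipa) fell from 14.39 and 14.44 to 12.19 and 12.31 (-2.17, with -0.61 in its other probe), and the neutral cholesterol ester hydrolase Aadacl1 (now Nceh1) from 14.29 and 14.34 to 12.39 and 12.35 (-1.94). Lpl, among the brightest genes, fell from 16.58 and 16.24 to 15.12 and 14.92. The cholesterol exporter Abca1 rose by 1.24 while Abcg1 changed by -0.41 and Scarb1 by -1.06. In the fit on array means, 4 genes of fatty acid synthesis and 6 of the LXR class were called lower.

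**Figure D2:**
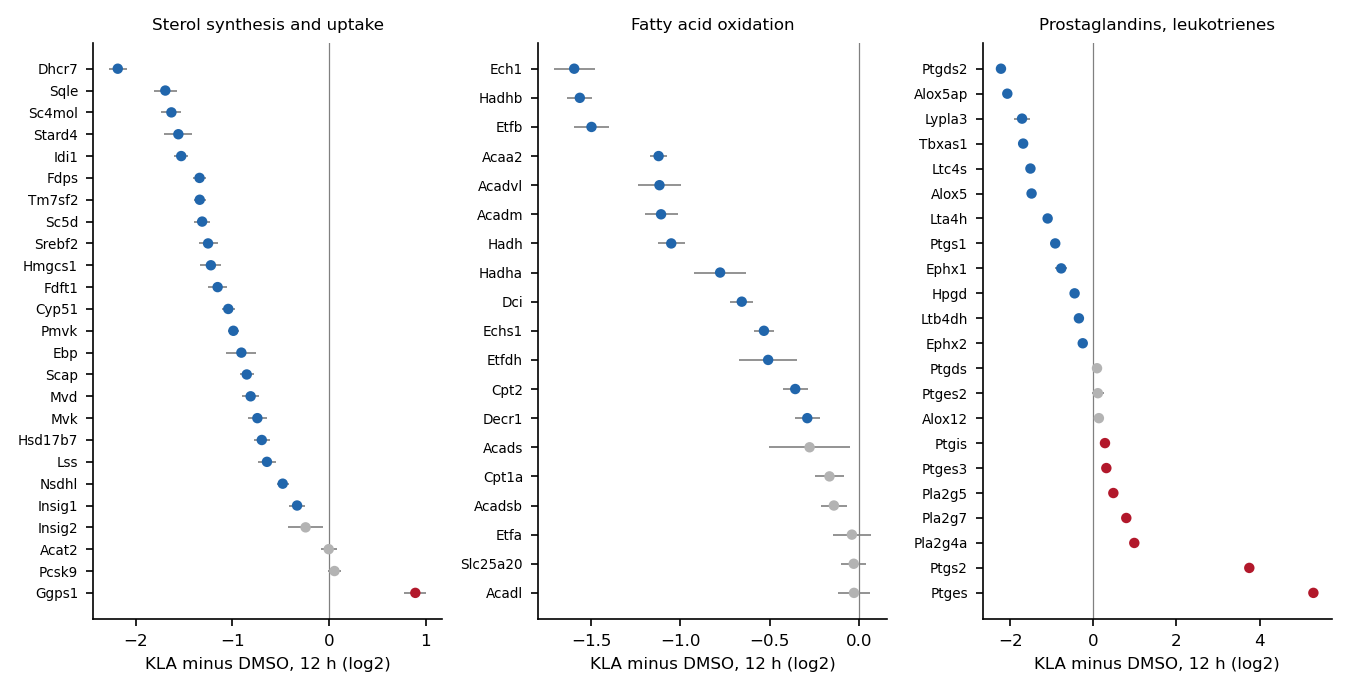
Change at 12 h (log2, KLA minus DMSO, horizontal) of genes of sterol synthesis (25 of the 28 tested), mitochondrial fatty acid oxidation and eicosanoid synthesis, with bars of 1 SE; blue genes were called lower, red higher and grey not called. In the left panel 21 of 25 genes are blue, in the middle panel 13 of 19, and in the right panel Ptgs2 and Ptges stand far above the rest.

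Genes of mitochondrial energy metabolism were lower in large number, and decreases over 2-fold were most numerous in fatty acid oxidation. Of 19 genes of fatty acid oxidation 13 fell (68.4%, beside 34.3% of all genes). Of these 7 fell by over 2-fold, and the class median was -0.53. Ech1 fell from 11.50 and 11.69 to 9.89 and 10.10 (-1.59, SE 0.12), Hadhb from 12.33 and 12.25 to 10.77 and 10.69 (-1.56) and Etfb from 14.18 and 14.31 to 12.66 and 12.83 (-1.50). The long-chain dehydrogenase Acadl, by contrast, measured 10.07 and 9.92, then 10.07 and 9.86. In the citrate cycle 17 of 26 genes fell (65.4%) and 1 rose. Idh1, the cytosolic isocitrate dehydrogenase, changed by -1.60 and Idh2, the mitochondrial one, by -1.05. Of 78 subunits of the respiratory chain and ATP synthase 63 fell (80.8%) and 2 rose. The median of -0.49 was made of shifts of which 1 exceeded 2-fold downward. Of 37 peroxisomal genes 25 fell (67.6%), 3 of them by over 2-fold, with a median of -0.35. Of 10 enzymes of the pentose phosphate pathway 5 fell (50%), 3 of them by over 2-fold. In the fit on array means the numbers called lower were 4, 4, 21, 6 and 2 in these classes. Without normalization between arrays the median of the respiratory class lay at -0.23, that of the citrate cycle at -0.08 and that of the peroxisome at -0.22, the values nearest to 0 among the alternatives.

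Cytosolic ribosomal proteins were lower in large number and by small amounts. Of 82 cytosolic ribosomal proteins 70 fell (85.4%, beside 34.3% of all genes) and 3 rose. Class medians per channel were 15.18 and 15.31 after DMSO and 14.76 and 14.66 after KLA, with a median change of -0.53. These probes are among the brightest on the array, and 1 of them fell by over 2-fold. Without normalization between arrays their median change was -0.22. Mitochondrial ribosomal proteins (30 of 75 lower, 15 higher) and aminoacyl-tRNA synthetases (17 of 37 lower, 8 higher) were closer to the background share. The median of the mitochondrial ribosomal proteins changed sign, to 0.04, without normalization between arrays. Array means as samples gave 25 cytosolic and 4 mitochondrial ribosomal proteins called lower. In the opposite direction, 26 of 45 proteasome subunits rose (57.8%, beside 19.6% of all genes) and 3 fell. The rise was largest in the immunoproteasome, where Psmb9 went from 11.69 and 11.75 to 15.08 and 14.99 (3.32), Psmb10 changed by 2.80 and Psmb8 by 2.74, and in the activator subunit Psme1 (2.04); 7 of the 45 rose by over 2-fold, and 10 were called higher with array means as samples.

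Lysosomal genes were lower as a group, with marked exceptions. Of 80 genes 48 fell (60%, beside 34.3% of all genes) and 10 rose (12.5%, beside 19.6%). By over 2-fold 13 fell, and the median was -0.37, or -0.20 without normalization between arrays. Beside Sgsh, the largest decreases were those of Atp6v0a1, a membrane subunit of the proton pump (-2.69), Lip1 (-2.17) and Galc, the galactosylceramidase (-1.89). Man2b1, Fuca1 and Gusb, which trim glycans, changed by -1.61, -1.40 and -1.39. The other probe of Man2b1 gave 0.02 and that of Gusb -0.59, and those of Galc gave -1.39 to -0.17. Ctsc, the cathepsin that activates granule proteases, rose from 11.96 and 12.13 to 13.93 and 13.90 (1.87), and the acid phosphatases Acp2 and Acp5 rose by 1.45 and 1.08. In the fit on array means 17 of the 80 were called lower and 3 higher.

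Receptors for the uptake of particles and dying cells moved in both directions. Of 51 scavenger and efferocytosis genes 29 fell (56.9%, beside 34.3% of all genes) and 14 rose (27.5%, beside 19.6%). Of these 19 and 9 changed by over 2-fold. Mgl1 (now Clec10a), a galactose-type lectin of alternatively activated macrophages, fell from 10.09 and 9.99 to 7.44 and 7.31 (-2.66, SE 0.09). Havcr2 (TIM-3) fell from 11.13 and 11.39 to 8.56 and 8.69 (with -0.43 in its other probe), and Itgb5, the integrin chain that binds the bridging protein of dying cells, from 15.51 and 15.43 to 12.89 and 12.79. The mannose receptor Mrc1 fell from 11.64 and 11.47 to 9.59 and 9.46 (-2.03), Cd36 from 14.90 and 15.00 to 13.41 and 13.55 (-1.47), and Gas6, the ligand of the TAM receptors, from 13.10 and 13.01 to 10.88 and 10.87 (-2.18). Its receptor Axl went the other way, from 8.77 and 8.92 to 10.97 and 11.25. Clec4e, the lectin Mincle, rose from 9.27 and 9.35 to 16.17 and 15.90, a 106-fold increase, Scarf1 by 3.19, Marco by 2.19 and Msr1 by 1.31. Axl and Scarf1 are members of the late list and Clec4e of the early list. Array means as samples gave 20 of the 51 called lower and 10 higher. For Itgb3 the probe used fell (-2.11), while the mean over its probes was 0.38 and its probe with a curated accession rose, so no direction is given for that gene.

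Of 26 Fc receptor and complement genes 13 fell and 13 rose, 50% each beside 34.3% and 19.6% of all genes. Gpr77 (now C5ar2), the decoy-like receptor for C5a, fell from 9.61 and 9.55 to 6.75 and 6.89 (-2.76). Cfb, a protease of the alternative pathway, rose from 10.06 and 10.03 to 16.45 and 16.38, an 82.7-fold increase. C3 rose by 1.86 (0.72 in its other probe) and C2 by 2.42. The classical recognition chains C1qa, C1qb and C1qc changed by -0.63, -0.77 and -1.10, whereas the protease chains C1r and C1s changed by 1.85 and 0.62. The high-affinity IgG receptor Fcgr1 rose from 13.74 and 13.66 to 16.58 and 16.45. The low-affinity Fcgr3 changed by -1.46 (-0.63 in its other probe) and the inhibitory Fcgr2b by 1.40. With array means as samples 5 of the 26 were called lower and 9 higher.

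Of 22 enzymes of eicosanoid synthesis 12 fell (54.5%, beside 34.3% of all genes) and 7 rose (31.8%, beside 19.6%). In the leukotriene branch Alox5ap, which presents arachidonate to the lipoxygenase, fell from 14.47 and 14.60 to 12.40 and 12.54 (-2.07, SE 0.06). The lipoxygenase Alox5 fell from 7.52 and 7.54 to 6.08 and 6.01, below the detection limit, and was at least 2.75-fold lower by the probe used. Its other probes gave smaller changes, of -0.90 and -0.65. Ltc4s fell from 8.53 and 8.65 to 6.99 and 7.16 (-1.51) and Lta4h from an average of 10.20 to 9.10 (-1.10), so that all these members of the branch moved down. Among the prostanoid enzymes, the constitutive cyclooxygenase Ptgs1 fell from 11.29 and 11.34 to 10.31 and 10.49 (-0.91), the thromboxane synthase Tbxas1 from 12.71 and 12.82 to 11.08 and 11.08 (-1.69, with -1.69 and -0.04 in its other probes), and the prostaglandin D synthase Ptgds2 (now Hpgds) from 10.29 and 10.44 to 8.14 and 8.16 (-2.22). Ptges, the prostaglandin E synthase, rose from 8.22 and 8.17 to 13.46 and 13.51, a 39.2-fold increase outside both study lists, and Ptgs2, a member of the early list, rose by 3.75. Pla2g4a, the cytosolic phospholipase, rose by 0.99. When arrays were the samples, 7 of the 22 were called lower and 3 higher.

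Transcription factors of macrophages changed in both directions, 28 of 70 lower (40%) and 27 higher (38.6%), beside 34.3% and 19.6% of all genes. Mxi1, a Max-binding repressor, fell from 10.11 and 10.13 to 8.18 and 8.28 (-1.89), and Cebpa, a factor of myeloid differentiation, from 11.98 and 12.24 to 10.28 and 10.52 (-1.71). Cebpa was already at -1.49 at 1 h. Mxd1, of the same Max-binding family as Mxi1, rose from 8.66 and 8.61 to 11.20 and 11.25. Batf2, in the late list, rose by 4.69, Irf1, in the early list, by 3.73, and Nfkb2 and Relb by 2.51 and 2.07. Of 30 nuclear receptors and partners, 11 fell (36.7%) and 7 rose (23.3%), near the shares of all genes. Beside Pparg, its partner Rxra changed by -0.89 and the LXR gene Nr1h3 by 0.64, but the other probe of Rxra gave 0.09. The circadian output factor Dbp changed by -1.24, the largest of 6 decreases among 16 clock genes (37.5%, near the share of all genes). Replication and mitosis genes were called about as often as all genes, 34 of 91 lower (37.4%) and 20 higher (22%). Their median of -0.09 changed sign, to at most 0.048, in 3 alternatives: without normalization between arrays, with the normalized values of the authors and with array means as samples. Of 37 histone genes, 17 fell (45.9%), led by the linker histone Hist1h1c (-1.66). When arrays were the samples, 9 of the 70 transcription factors were called lower and 9 higher, and no histone or clock gene was called.

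Of 135 G protein-coupled receptors 42 fell (31.1%, beside 34.3% of all genes) and 43 rose (31.9%, beside 19.6%), and 21 were below background in at least 1 channel of each condition. Cxcr4 fell from 9.43 and 9.35 to 7.72 and 7.61 (-1.72), P2ry1 changed by -2.04 (-0.95 in its other probe) and the adhesion receptor Cd97 by -2.41. The formyl peptide receptor Fpr1 rose from 6.58 and 6.61 to 13.16 and 13.08, a 92.1-fold increase, and Fpr-rs2 (now Fpr2), not detected after DMSO, was at least 86.4-fold higher. Ccr7, the receptor that guides cells to lymph nodes, rose by 2.03. Among 44 receptors for interleukins and growth factors 13 fell (29.5%, beside 34.3% of all genes) and 21 rose (47.7%, beside 19.6%). The probe used for Tgfbr2 went from 12.65 and 12.48 to 11.07 and 11.02, while its other probes gave 0.01 and 0.10, so no direction is given for that gene. Ifngr1, the ligand-binding chain of the interferon gamma receptor, fell from 13.56 and 13.48 to 12.32 and 12.25, while Il15ra rose by 3.87 and Tnfrsf1b by 2.42. In the TLR pathway the probe used for Tlr4 went from 9.99 and 9.97 to 9.27 and 9.17 (-0.76), but its other probe gave 0.05. Tlr2, in the early list, rose by 4.41, Tlr3 by 2.53 and Myd88 by 1.66. When arrays were the samples, 9 of the G protein-coupled receptors were called lower and 18 higher.

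**Figure D3:**
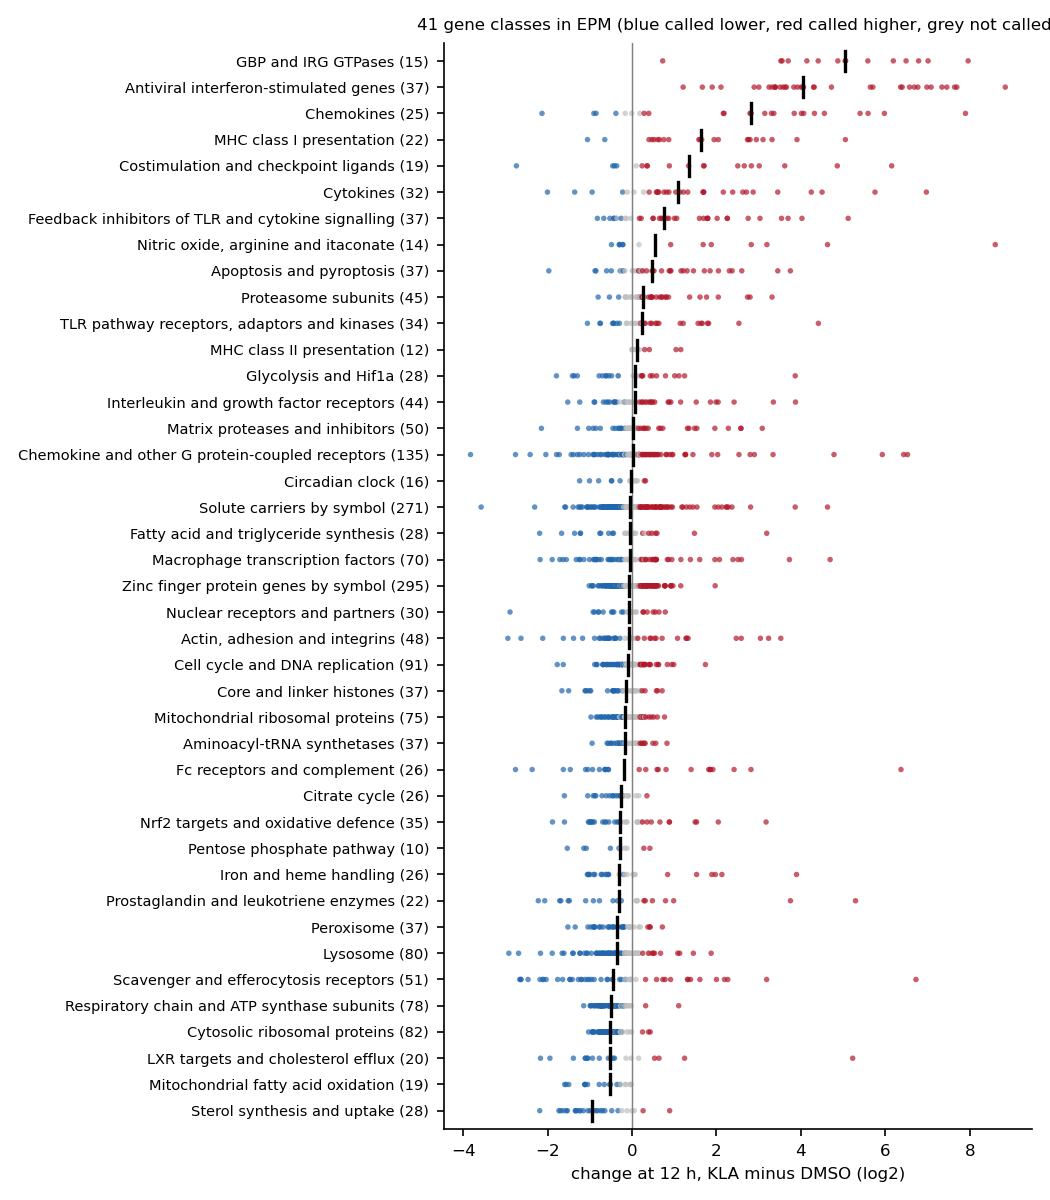
Change at 12 h (log2, KLA minus DMSO, horizontal) of every tested member of 41 gene classes, ordered by the class median (black bar), with the number of members in brackets; blue members were called lower, red higher and grey not called. The medians run from -0.95 for sterol synthesis to 5.05 for the GBP and IRG GTPases.

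Most genes higher by over 4-fold in the values used here lay outside the early and late lists. Of 361 genes higher by over 4-fold at 12 h, 55 were in the early list, 97 in the late list and 209 in neither (462 with Feature Extraction's processed signal). The copy of the late list used here was slightly shorter than the paper states, and 119 of its genes were tested. The 209 had a median change of 2.89 at 12 h and of 0.32 at 1 h. In 98 of them the fold at 1 h was below the 1.2 that the late list allowed, in 93 it lay between 1.2 and 3, and in 18 above 3. The list thresholds leave out genes between 1.2 and 3 by design. These folds come from the processing used here, and why the lists lack the 98 and the 18 was not tested. At 1 h 116 of the 209 were called higher, against 9.39% of all genes tested. With array means as samples 197 of the 209 were also called higher at 12 h.

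Several of the named increases outside both lists were antiviral genes. Ifit3, an antiviral protein with tetratricopeptide repeats (chr19:34654612-34654671), measured 7.50 and 7.54 after DMSO and 16.46 and 16.26 after KLA, a 458-fold increase (log2 change 8.84, SE 0.10). Irg1, the itaconate-producing enzyme, rose from 8.31 and 8.20 to 16.96 and 16.75 and was at 6.74 already at 1 h. Tyki (now Cmpk2) rose from 7.08 and 7.18 to 14.77 and 14.77, and Gbp2, a guanylate-binding GTPase of cell-autonomous defence, from 8.97 and 8.96 to 15.88 and 16.08. Tgtp (now Tgtp1), an IRG GTPase, rose from 6.93 and 6.95 to 14.86 and 14.94, and Zbp1, a sensor of Z-form nucleic acid, from 8.60 and 8.61 to 15.25 and 15.33. The neighbouring Ms4a4b and Ms4a4d on chromosome 19 rose by 7.71 and 7.55; members of this family are near copies, and their other probes gave 0.05 to 7.46 and 1.70. Ifi205 rose by 6.63, with 0.09 in its other probe, so that its value is uncertain too. All 37 antiviral interferon-stimulated genes and all 15 GBP and IRG GTPases were called higher, with medians of 4.04 and 5.05. With array means 36 and 15 were called; 14 and 6 members of these classes belong to the late list and 14 and 7 were beyond 4-fold outside both lists.

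The promoters of Ifit3 (chr19:34583279-34583578, plus strand, GRCm38.p6) and Gbp2 (chr3:142620413-142620712, plus strand) are shown because they carry the element that sets induced windows apart in the counts below. Capitals mark matches to GAAANNGAA, the core of the interferon-stimulated response element, read here on the opposite strand. In Ifit3 the 3 matches begin 155, 121 and 102 bases before the start, and in Gbp2 the single match begins 58 bases before it. Both windows also held AP-1 letters, and that of Ifit3 the NF-Y letters, which are not marked.
Ifit3: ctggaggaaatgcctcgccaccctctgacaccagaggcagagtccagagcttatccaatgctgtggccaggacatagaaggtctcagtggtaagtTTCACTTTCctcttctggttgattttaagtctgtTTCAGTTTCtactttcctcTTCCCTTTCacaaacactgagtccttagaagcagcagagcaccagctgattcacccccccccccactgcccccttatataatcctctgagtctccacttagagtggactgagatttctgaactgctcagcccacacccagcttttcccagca
Gbp2: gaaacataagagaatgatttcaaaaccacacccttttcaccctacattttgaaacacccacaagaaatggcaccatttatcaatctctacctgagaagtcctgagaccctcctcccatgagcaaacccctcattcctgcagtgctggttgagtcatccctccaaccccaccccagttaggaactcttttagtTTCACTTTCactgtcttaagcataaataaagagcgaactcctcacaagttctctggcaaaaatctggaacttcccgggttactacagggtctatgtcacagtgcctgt
These letters stood in 27.8% of the windows of genes higher by over 4-fold and in 31.2% of the 170 windows of such genes outside both lists, in 6.25% of the windows of repressed genes and in 7.55% of those of all genes tested. The NF-kappaB letters GGANTTTCC stood in 6.80% of windows of the induced genes, 2.94% of those outside both lists, 0.625% of the repressed and 1.35% of all. The AP-1 letters TGANTCA stood in 15.5%, 12.9%, 5.88% and 6.24%.

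Genes outside the lists also reached beyond antiviral defence. In arginine and nitric oxide metabolism the cationic amino acid carrier Slc7a2 rose from 7.12 and 7.08 to 11.65 and 11.81 (24.8-fold), Ass1, which recycles citrulline, by 3.19, and Gch1, which starts the synthesis of the cofactor tetrahydrobiopterin, by 2.82. In antigen presentation 20 of 22 genes of the class I pathway rose (90.9%, beside 19.6% of all genes) and 2 fell, with H2-T22 8.59-fold higher. Of 12 class II genes 4 were called higher (33.3%), and the class median was 0.13 (-0.025 with array means as samples). H2-Ab1 measured 12.36 and 12.42, then 12.79 and 12.80. Of 19 costimulatory and checkpoint ligands 14 rose (73.7%). Cd40 went from 7.31 and 7.29 to 13.46 and 13.45 (71.0-fold) and Cd274 (PD-L1) from 11.48 and 11.40 to 15.10 and 15.02, although another probe of Cd274 gave 0.17. In the opposite direction 4632428N05Rik (now Vsir, the checkpoint protein VISTA) fell from 12.65 and 12.56 to 9.81 and 9.92 (-2.74).

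Among cytokines 25 of 32 rose (78.1%, beside 19.6% of all genes) and 4 fell. Among chemokines 18 of 25 rose (72%) and 4 fell. Of these classes 11 and 10 genes are in the early list. The cytokine decreases were those of the growth factors Vegfb (4.01-fold lower, with a log2 change of -0.97 in its other probe), Igf1 (-1.36) and Pdgfb (-0.22) and of Il16 (-0.94, with -0.12 in its other probe). Those of chemokines were the constitutive Cxcl14 (-2.13), Cxcl12 (-0.90), Ccl6 (-0.85) and Cxcl4 (-0.38). Igf1 fell from 14.55 and 14.81 to 13.24 and 13.40, and Cxcl14 from 10.36 and 10.32 to 8.20 and 8.20. Outside the lists Ccl5 rose by 5.98 and Cxcl16 by 2.82. Feedback inhibitors were mostly higher, 26 of 37 (70.3%), with Socs1 at 3.70 and Irak3 at 2.26. Of 37 genes of apoptosis and pyroptosis 23 rose (62.2%) and 7 fell (18.9%, beside 34.3% of all genes). In oxidative defence 18 of 35 fell (51.4%), led by Mgst3 (-1.88, with -1.75 and -0.08 in its other probes) and Gpx1 (-1.60). Increases numbered 10 (28.6%), led by the mitochondrial Sod2 (3.18) and the cystine carrier Slc7a11 (2.04). In iron and heme handling 13 of 26 fell (50%) and 6 rose (23.1%). The iron exporter Slc40a1 changed by -1.03, and Hmox1, the heme oxygenase, rose from 14.27 and 14.27 to 15.87 and 15.73. With array means as samples 18 of the cytokines, 16 of the chemokines and 13 of the class I genes were called higher.

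The class lists covered only part of the response. Of the 17326 genes tested 2070 were in a class, as were 154 of the 798 repressed and 68 of the 209 induced genes outside both lists. By symbol, 86 of 271 solute carriers fell and 54 rose, and 93 of 295 zinc finger protein genes fell and 52 rose, shares near those of all genes. At 1 h, however, 169 of the 295 zinc finger genes were lower, beside 19.7% of all genes at that time. Their median was -0.27 at 1 h and -0.06 at 12 h, against different control arrays.

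The change at 12 h differed from that at 1 h in 7579 genes (43.7% of those tested, limma contrast of the effects). Of the 5 largest drops 4 were of genes in the early list, which the study had chosen for their 1 h induction. Ifnb1, the interferon beta gene, was 7.50 at 1 h and 1.22 at 12 h, where it measured 7.47 and 7.21 after KLA and was not detected after DMSO (at least 2.32-fold). Egr2 rose by 2.60 at 1 h and measured 13.15 and 13.25 after DMSO and 11.64 and 11.65 after KLA at 12 h. Egr1 likewise went from 4.10 to -0.85. Nfkbiz, an atypical inhibitor of NF-kappaB outside both lists, was at 6.23 at 1 h and at 2.26 at 12 h. Late gains were largest for Ms4a4c, Tgtp, Ms4a4b, Ms4a4d and Ifit3, whose 1 h changes lay between -0.27 and 1.39. When each array was 1 sample, the control arrays were pooled and KLA at 12 h was compared with KLA at 1 h directly. That comparison called 1291 genes and does not remove changes of the controls over time.

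**Figure D4:**
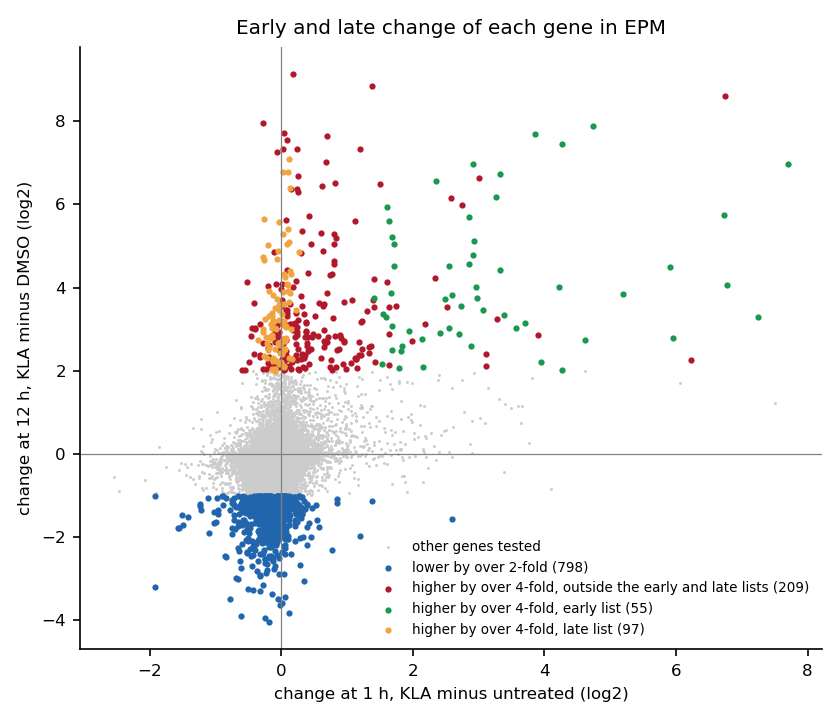
Change at 12 h (log2, vertical, KLA minus DMSO) against change at 1 h (log2, horizontal, KLA minus untreated) of every gene tested in EPM, with coloured groups given in the key. The genes repressed by over 2-fold at 12 h, which were selected on the vertical axis, have a median of -0.18 on the horizontal axis.

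The same 12 h treatment of BMDM called 6299 genes lower (36.4%) and 4960 higher (28.6%). Of the 798 genes repressed by over 2-fold in EPM, 701 (87.8%) were also lower in BMDM, 447 by over 2-fold, with a median there of -1.10, and 23 were higher. Of the 209 induced genes outside both lists, 206 were higher in BMDM and 2 lower. The effects of the 2 cell types lie on different slides and share no control samples. By the test of the difference 8288 genes (47.8%) differed, which dropped to 107 with array means as samples and the control arrays of each cell type pooled.

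The widest gap between the class medians of both macrophages was that of the cell cycle. Its 91 genes had a median change of -0.09 in EPM and of -1.79 in BMDM, where 87 fell and 3 rose; the difference was called in 88, and in 86 of them it was positive, beside 23.2% of all genes. Per channel the EPM class medians were 9.55 and 9.53 after DMSO and 9.64 and 9.57 after KLA. Cytosolic ribosomal proteins were also lower in BMDM, with a median of -0.93 against -0.53, and 44 of the 45 differences called were positive. Among the classes of metabolism the EPM and BMDM medians were -0.95 and -0.82 for sterol synthesis, -0.49 and -0.48 for the respiratory chain, and -0.53 and -0.75 for fatty acid oxidation. They lay further apart for the citrate cycle (-0.26 and -0.47), the pentose phosphate pathway (-0.29 and -0.72) and the peroxisome (-0.35 and -0.19).

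Some of the repressed genes had lower control levels in BMDM. Bex1, at 11.43 and 11.51 in EPM after DMSO, averaged 6.03 in BMDM and was not detected there. Mamdc2 averaged 7.68 in control BMDM and changed by -0.55, and Cmbl averaged 7.46 and changed by -1.05, against -3.48 and -4.03 in EPM. Ebi2 began at 10.21 in BMDM and changed by -3.67, and the difference between the cell types did not pass the test (-0.16, adjusted p = 0.28 by limma). In BMDM Cxcl14 changed by 0.86. On the induced side Fpr1 averaged 14.10 in control BMDM, above the level of KLA-treated EPM, and rose by 1.31. Tlr2 averaged 12.88 in control BMDM, between both EPM conditions, and changed by -0.49. Ifit3 averaged 11.90 in control BMDM and rose by 4.66 to a level of 16.56, close to that of EPM.

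**Figure D5:**
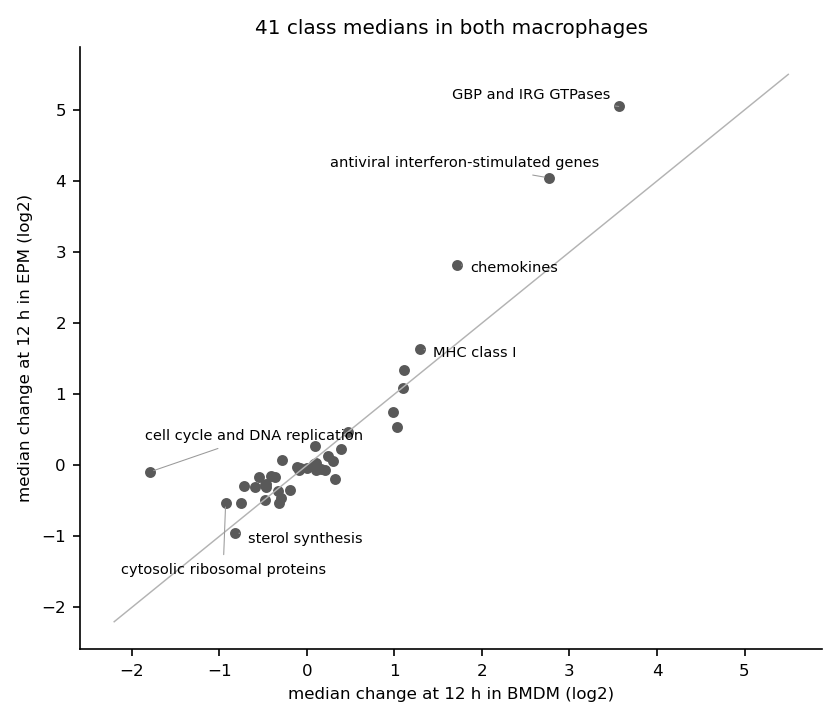
Median change at 12 h (log2, KLA minus DMSO) of each of 41 gene classes in EPM (vertical) against BMDM (horizontal), with the line of equal values. The cell cycle class lies far left of the line, at -1.79 in BMDM and -0.09 in EPM, and the interferon classes lie above it.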

How the data were processed

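Elicited macrophage RNA was hybridised to Agilent 2-colour arrays with 2 samples of a single condition per array; the deposited files hold channel intensities written by Feature Extraction 9.5.3.1, as the file headers say, with probe coordinates on mm8. The normalized log2 values that the authors deposited were used as an alternative. From the scanner intensities, background was corrected (normexp, offset 50), control spots were left out, dyes were balanced by loess and arrays by quantiles of the mean intensities (Aquantile), and log2 values were taken per channel with limma 3.58.1 in R 4.3.3 (statmod 1.5.0; package data.table, version 1.17.8). Spots flagged as outliers were left out, which gave 92 missing values among the genes tested. Of 43379 spots (41174 probes, 34850 of them with a symbol), the brightest probe of each of 21597 symbols was kept, and 17326 genes were tested, those that both channels of some condition (of 12) measured well above background. Gene symbols are those of the array design; 15326 of the tested genes matched RefSeq by accession or symbol, and current names are given in brackets.

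The 24 channels, those of B cells included, entered 1 limma fit with a coefficient per condition (12 residual degrees of freedom), since the methods name no model. P-values were adjusted by Benjamini-Hochberg over all genes tested. A fit on the EPM channels only gave 5857 genes lower and 3320 higher after 12 h of KLA. A bound ("at least") was given where a gene was not well above background in either channel of a condition. Precision is limited by the number of arrays, and nothing in the labels says whether the 2 channels of a condition came from separate cultures. The paper states biological triplicates for each time point, but the series holds 2 channels per condition. P-values therefore measure only the spread between these samples, which may be technical. Between replicate channels log ratios of replicated probes had a larger SD than the error between spots, but the channels also differ in dye, so this does not show that they are separate samples; they were counted as the labels give them. Same-dye channels deviated together in all 66 pairs of arrays (correlation 0.267 to 0.627; 0.434 for KLA with DMSO at 12 h), hence the dye was also used as a replicate block.

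Members, gene lists and tests were chosen with earlier results of these data known. Named genes outside the study's lists were the 20 largest decreases and 12 largest increases that passed the threshold without overlap between conditions, leaving out clone-like symbols; up to 3 per direction were named in each of 41 classes and 5 per direction for each difference of effects, and other genes named here were chosen after their values were seen; a few genes are not reported here. Lists were described by counts and medians without a set test. The fit was tested on simulated data. Alternatives covered background correction, signal, normalization, centring, filter, probe choice, dye block, samples in the fit, array means, variance trend, threshold and leaving out each channel.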

Additional observations from a re-analysis of the deposited data

Results flagged for a closer look

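The tests of the difference between effects flagged 20 values, the 5 largest in each direction of both contrasts that passed the rule for named genes (limma adjusted p under 0.05). They are log2 differences, and in each the arrays of the conditions compared are different ones.

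Against the effect at 1 h, the effect at 12 h was lower by the following differences, with the change at 12 h after it: Ifnb1 -6.28 (1.22), Egr1 -4.96 (-0.85), Tnfsf9 -4.37 (1.69), Egr2 -4.16 (-1.56) and Nfkbiz -3.98 (2.26). Of these 5 genes, 4 are in the early list, which was chosen on the 1 h change. It was higher for Ms4a4c by 8.95, for Tgtp by 8.24, for Ms4a4b by 7.67, for Ms4a4d by 7.46 and for Ifit3 by 7.45, and other probes of Ms4a4b, Ms4a4d and Tgtp showed smaller changes at 12 h (from 0.05, at 1.70 and at 2.67).

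Against BMDM at 12 h, the effect in EPM was lower for Serpina3g (-3.47, from 3.56 in EPM and 7.03 in BMDM), Kcnab1 (-3.29, from -0.18 and 3.11), Bex1 (-3.24, from -3.36 and -0.12), Indol1 (-3.20, from -0.05 and 3.15) and Odz4, now Tenm4 (-3.18, from -1.54 and 1.65). Bex1 was not detected in BMDM. Another probe of Kcnab1 gave -0.91 in EPM, and other probes of Odz4 gave -1.59 to 0.11. The effect in EPM was higher for Fpr1 (5.21, from 6.52 and 1.31), Tlr2 (4.90, from 4.41 and -0.49), Slco4a1 (4.43, from 3.54 and -0.89), Ifit3 (4.18, from 8.84 and 4.66) and Tmem178 (4.11, from 5.10 and 0.99). Control BMDM stood above control EPM in 4 of these 5 genes: Fpr1 at 14.10, Tlr2 at 12.88, Slco4a1 at 10.94 and Ifit3 at 11.90. The part of these control levels in the differences was not tested.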

How the results depend on the processing

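The array means as samples moved the counts most: 1032 genes lower, 976 higher, 1291 with a difference between 12 h and 1 h and 107 with a difference between EPM and BMDM. That fit has fewer samples and pools the control arrays of each cell type, so its count for 12 h and 1 h compares the KLA arrays directly. Feature Extraction's processed signal left the number of calls nearly as it was but gave 1644 genes lower and 1442 higher by over 2-fold, and 462 higher by over 4-fold outside both lists; the cause was not tested. The dye as a replicate block gave 6722 lower and 3883 higher and changed no other count by over 1.5 times. Leaving out each channel in turn gave 5255 to 5319 lower and 2968 to 3037 higher. Of 240 named genes, 82 lost their call with array means and at most 5 under any other single alternative. Changes of sign were seen for Psmd2 (0.0261 without normalization between arrays), Itgb3 (0.38) and Agtrap (1.37) with the mean over probes, Itgb3 (2.87) with curated accessions, and H2-Ab1 (-0.0153) and Nfil3 (-0.11) with array means. The medians of 8 of 41 classes changed sign under some alternative, each within 0.13 of 0 in the main analysis except the mitochondrial ribosomal proteins (-0.16). Of the 20 flagged differences 5 lost their call with array means.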

Other observations

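Of 48 actin, adhesion and integrin genes 22 fell (45.8%) and 16 rose (33.3%) at 12 h, beside 34.3% and 19.6% of all genes. Apart from the integrin chains described above, the tetraspanins Cd9 and Cd151 changed by -1.38 and -0.89. The leukocyte ligands Icam1 and Vcam1 rose by 3.52 and 2.59 and the matrix protein Thbs1 by 2.47. Other probes gave -0.89 and -0.02 for Cd9 and -0.21 and 1.93 for Vcam1. Of 50 matrix proteases and inhibitors 13 fell (26%) and 18 rose (36%), beside the same shares of all genes. Timp2, an inhibitor of metalloproteases, stood at -2.15, the macrophage elastase Mmp12 at -1.29, the collagenase Mmp13 at 3.08 and Mmp14 at 1.96. Of 28 glycolytic genes 11 fell and 11 rose, 39.3% each beside the same shares of all genes. Aldoc changed by -1.79 and Ldhb by -1.41, and the kinase isoforms Pfkfb3 and Hk2 by 1.24 and 1.01. In the fit on array means 8 actin, 3 matrix and 1 of the glycolytic genes were called lower, and 8, 8 and 2 higher. Aldoc was not called in that fit. Among death genes the inflammatory caspase Casp4 rose by 3.75 and the necroptosis effector Mlkl by 3.45, while the probe used for the BH3-only gene Bcl2l11 (Bim) changed by -1.97 and its other probes by 0.10 and 0.24, so no direction is given for it.

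Gata6, the factor of resident peritoneal macrophages, measured 10.96 and 10.88 after DMSO and 9.64 and 9.73 after KLA, and its other probes changed by -0.66 and -0.06. Another marker of these cells, Serpinb2, rose from 10.79 and 10.68 to 13.31 and 13.32, and Timd4 was detected after KLA only. Across the array 300 genes were detected in both DMSO channels and in no KLA channel, of which 264 were called lower and 25 by over 2-fold, and 484 genes were detected in both KLA channels and in no DMSO channel, of which 335 were called higher and 80 by over 2-fold.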
